A study of Homo sapiens with 12 samples.

Results

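The zinc-handling genes of H1299 cells are described here in 3 roles: the exporters of the SLC30A family, the importers of the SLC39A family, and the metallothioneins with their regulator MTF1. Members were chosen by symbol from a table of 59577 genes, which gave 36: 10 exporters, 14 importers, 11 metallothionein rows and MTF1. RNA was sequenced from 12 samples of this established human lung cancer line. Hyperoxia cells (n = 6) were kept for 24 h at 60% oxygen, 5% CO2 and 35% nitrogen. Normoxia cells (n = 6) were kept at 21% oxygen, 5% CO2 and 74% nitrogen. The comparison asks which transcripts differ after a day of supplemental oxygen. Whether the 6 samples per group were separate cultures is not in the labels; the p-values therefore reflect the spread among the sequenced samples, and that spread may be technical.

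Values are TPM, the usual abundance unit scaled by transcript length and by the sample's total. Samples summed to between 996138 and 998797 TPM and had between 14275 and 14635 genes at 1 TPM or more. TPM keeps no read depth, so the depth behind each value is unknown. The keratin KRT18 lay between 891 and 995 TPM over the 12 samples, and the mesenchymal marker VIM between 2750 and 3316 TPM in hyperoxia and 3021 and 3523 TPM in normoxia, while the leukocyte gene CD3E and the surfactant gene SFTPC were listed at 0 in all of them. CD68, known as a macrophage marker, lay between 39.2 and 50.8 TPM over the 12 samples. The epithelial marker EPCAM did not exceed 0.28 TPM.

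Zinc is held in cells mainly on proteins, and its free level is kept low. SLC39A proteins bring zinc into the cytosol from outside or from organelles, and SLC30A proteins move it out of the cytosol. Metallothioneins are small cytosolic proteins whose many cysteines bind zinc and copper and can react with oxidants, which releases the metal. MTF1 senses free zinc and binds metal response elements upstream of metallothionein genes and of the exporter gene SLC30A1.

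Only MT2A and MT1X, among the 11 metallothionein rows, were listed at high values. Their coding sequences, from the GENCODE 29 transcripts on the plus strand of chromosome 16 (GRCh38), are shown because the family members resemble each other closely. Capitals mark the 20 cysteine codons among the 61 codons of each.
MT2A: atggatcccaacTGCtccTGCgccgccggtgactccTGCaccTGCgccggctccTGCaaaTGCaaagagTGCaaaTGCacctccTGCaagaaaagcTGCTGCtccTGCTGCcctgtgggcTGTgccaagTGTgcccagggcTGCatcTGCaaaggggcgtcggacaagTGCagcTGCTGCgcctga
MT1X: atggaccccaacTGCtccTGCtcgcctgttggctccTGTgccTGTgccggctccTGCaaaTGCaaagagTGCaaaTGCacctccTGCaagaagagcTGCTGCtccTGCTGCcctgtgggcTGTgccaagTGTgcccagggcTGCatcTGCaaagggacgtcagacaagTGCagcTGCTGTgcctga
The pair was identical at 172 of 186 bases (92.5%). Against 8 coding members of the family, MT2A was between 88.7% and 95.2% identical and MT1X between 88.7% and 93.0%. Of all stretches of 50 bases in the whole MT1X transcript, 16.0% also occur in another metallothionein gene, against 4.88% of those in MT2A. This share of exact stretches is a different measure from identity per base, so the 2 are not compared. How the submitters treated reads that match several genes is not given in the sources used here, so the split of reads among these copies is uncertain.

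The 250 bases before the start of each gene, from RefSeq on GRCh38.p14, are shown for the same pair because both genes are known to be driven by MTF1. Capitals mark matches to the core of the metal response element, TGCACNC or TGCGCNC on either strand; a match on the minus strand reads as its reverse complement, such as GTGTGCA.
MT2A, chr16:56608334-56608583, plus strand: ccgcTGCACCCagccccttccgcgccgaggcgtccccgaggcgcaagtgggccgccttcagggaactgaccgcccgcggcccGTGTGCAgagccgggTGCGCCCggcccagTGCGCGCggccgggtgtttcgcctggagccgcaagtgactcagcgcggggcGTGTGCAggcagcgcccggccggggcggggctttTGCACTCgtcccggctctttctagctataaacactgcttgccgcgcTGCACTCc
MT1X, chr16:56682220-56682469, plus strand: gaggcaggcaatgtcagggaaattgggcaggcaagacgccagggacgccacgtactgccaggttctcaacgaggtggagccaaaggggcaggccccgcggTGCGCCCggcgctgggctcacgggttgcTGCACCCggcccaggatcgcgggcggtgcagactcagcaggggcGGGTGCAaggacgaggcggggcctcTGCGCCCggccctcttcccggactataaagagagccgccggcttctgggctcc
MT2A held 7 matches, 5 of them on the plus strand, and MT1X held 4, of which 3 were on the plus strand; none overlapped another match. At least 1 match is found in 24.8% of the 35116 RefSeq promoter windows of this length, and at least 4 in 0.37%. The core of the antioxidant response element, searched as TGACNNNGC on both strands, had 1 match in each of these windows, against at least 1 in 10.9% of all windows, and overlapped no metal response match. RefSeq windows were at hand for 26 of the 36 members. MT1H, listed at 0 TPM, held 8 metal response matches, and SLC30A1 held 1, on the minus strand. A match is a description of letters, not a site in use.

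Of the 36 members, 20 had a mean of at least 1 TPM over the 12 samples and were tested. In hyperoxia 2 rose and 2 fell, while 16 did not pass (limma on log2(TPM + 1), Benjamini-Hochberg adjusted over all genes tested). That is 20.0% of the tested members, against 17.3% of all 14520 genes tested; by direction, 11.7% of all genes rose and 5.63% fell. That balance depended on the scaling: 67.5% of all calls were higher in hyperoxia, against 50%, 47.4% and 54.3% with median-of-ratios, upper-quartile and quantile scaling. The share of zinc genes called was thus near the background and is not a result about them as a group. The importer SLC39A8 and the exporter SLC30A6 rose, and the importer SLC39A11 and the metallothionein MT1X fell. The median log2 fold change of the tested members was 0.02, against 0.03 over all genes. No change of a tested member exceeded 0.32 on the log2 scale. Since TPM are shares of all transcripts in bulk RNA, fewer cells that express a gene and less RNA per cell cannot be told apart.

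**Figure D1:**
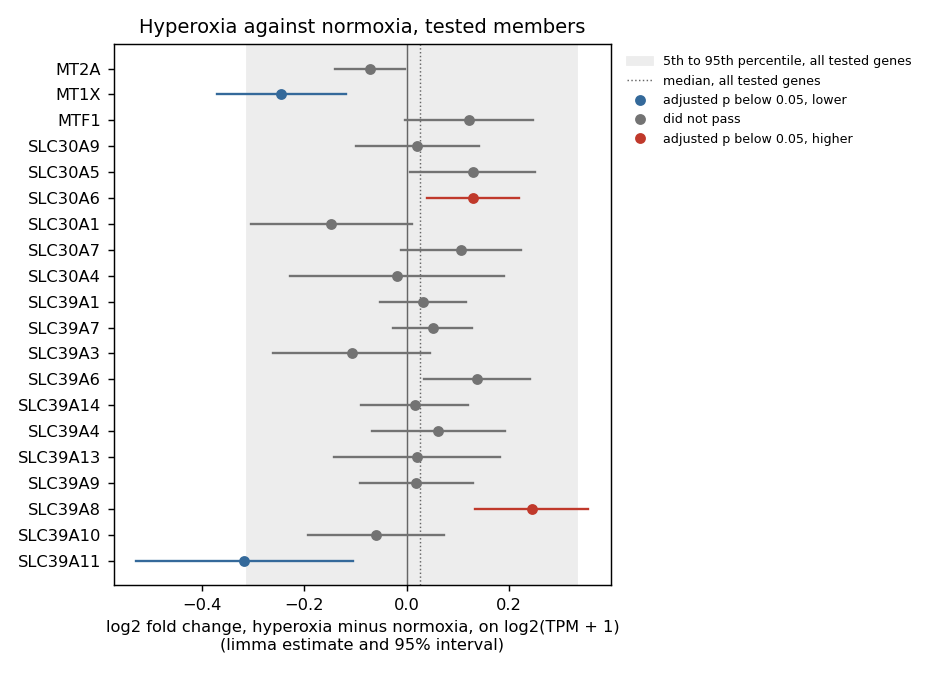
Log2 fold change of each tested member, hyperoxia minus normoxia on log2(TPM + 1), with limma's 95% interval (x axis), members by role down the page; red marks members that rose, blue those that fell, grey those that did not pass, and the shaded band spans the 5th to 95th percentile of all tested genes. SLC39A11 at -0.32 and MT1X at -0.25 lie furthest to the left and SLC39A8 at 0.24 furthest to the right.

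Metallothionein RNA was abundant, and 2 of its 11 members could be tested, too few to set their calls against the share over all genes. MT2A (ENSG00000125148) had 56 tested genes above it in mean TPM. Hyperoxia cells had a lowest value of 2275, a median of 2451 and a highest of 2505 TPM, against 2364, 2598 and 2660 TPM in normoxia cells. The groups overlapped, with 1 hyperoxia sample under all normoxia samples. Its mean was 2431 ± 79.9 TPM in hyperoxia and 2556 ± 108 TPM in normoxia (SD, n = 6 each), a log2 fold change of -0.07 (95% interval -0.14 to -0.003; limma, Benjamini-Hochberg adjusted p = 0.146). MT2A passed as lower in 2 of 25 alternative fits and did not pass in 23. The 2 were the fit without normoxia replicate 1 (log2 fold change -0.094, limma, Benjamini-Hochberg adjusted p = 0.0398) and the fit with a replicate block. After quantile normalisation its log2 fold change was -0.0016 (limma, adjusted p = 0.974). Without hyperoxia replicate 1 it was -0.052 (limma, adjusted p = 0.269).

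MT1X (ENSG00000187193) had 222 TPM in the lowest, 239 TPM at the median and 281 TPM in the highest hyperoxia sample, against 259, 291 and 308 TPM in normoxia. In 5 of the 6 hyperoxia samples it lay under every normoxia sample; hyperoxia replicate 2, at 281 TPM, lay within the normoxia range. MT1X averaged 243 ± 20.9 TPM in hyperoxia and 287.5 ± 19.8 TPM in normoxia (SD, n = 6 each) and fell by 0.25 on the log2 scale (limma, SE 0.058, Benjamini-Hochberg adjusted p = 0.0119). That is 0.844 times the normoxia level. The call held in all 12 fits that left out 1 sample, but not in an exact rank-sum test over the samples (adjusted p = 0.0559). In the authors' deposited table the log2 fold change of MT1X was -0.27 with an adjusted p of 0.00237, and that of MT2A was -0.11 with an adjusted p of 0.0644.

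Within a sample, MT1X made up 8.13% to 10.2% of the TPM of MT1X and MT2A together in hyperoxia (median 9.11%), and 9.45% to 10.5% in normoxia (median 10.2%). Those ranges overlapped. The summed metallothionein level was 2675 ± 83.8 TPM in hyperoxia and 2843 ± 125 TPM in normoxia (SD, n = 6 each). Hyperoxia samples ran from 2512 to 2749 TPM and normoxia samples from 2624 to 2968 TPM, again with overlap. A sum over chosen members was given no test.

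**Figure D2:**
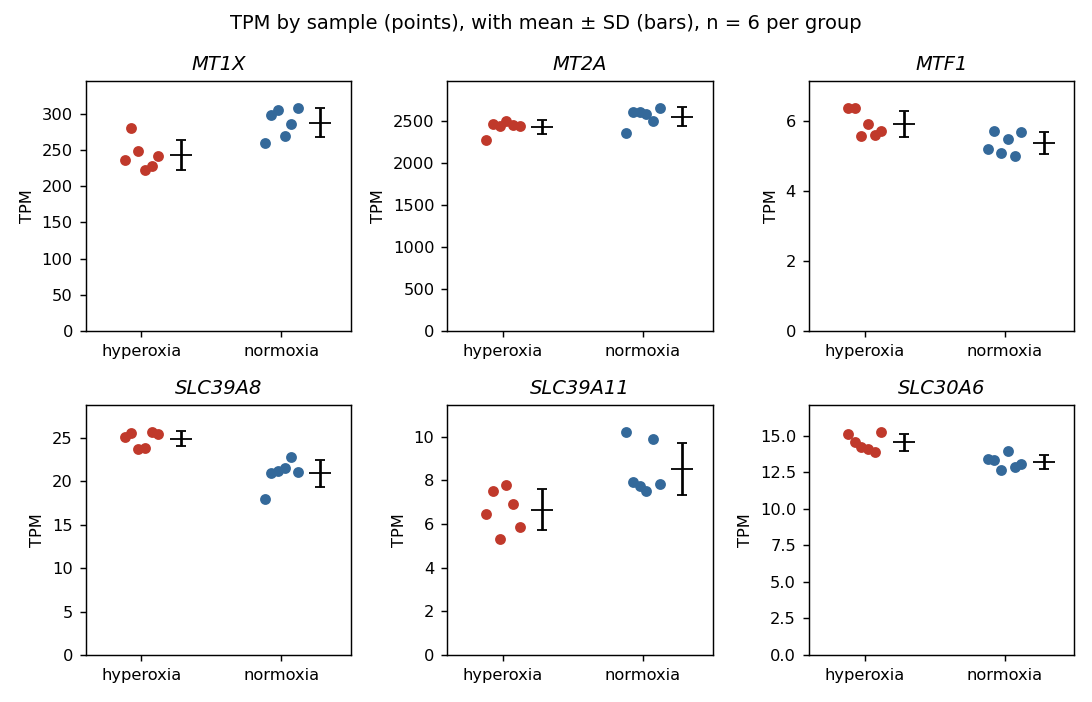
TPM of 6 members in each sample (points), hyperoxia left of normoxia, with the mean ± SD (black bars, n = 6 per group); every y axis starts at 0. The SLC39A8 groups do not overlap (23.8 to 25.7 TPM in hyperoxia, 18.0 to 22.8 TPM in normoxia), while the other 5 members overlap.

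The other metallothioneins were listed at or near 0. MT1A, MT1B, MT1E, MT1F, MT1G, MT1H, MT1M and the pseudogene MT1L were listed at 0 in all 12 samples. Whether these zeros come from the submitters' counting or from the cells cannot be settled from the table. Also at 0 in all 12 samples were 9 further metallothionein rows outside the definition, among them MT4, MT1JP and MT1XP1. For comparison, 13.9% of the 19877 protein-coding genes in the table were listed at 0 throughout, and of 80 genes with a ribosomal protein symbol only RPL10L was. The transcripts of the genes at 0 are not all alike: 5.34% of the 50-base stretches of MT1E occur in another metallothionein gene, against 20.4% for MT1H and 0.0% for MT1B. Whether shared stretches bear on the zeros was not tested. MT3, best known from brain, lay between 0 and 1.54 TPM in hyperoxia and between 0 and 0.89 TPM in normoxia and was not tested.

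MTF1 (ENSG00000188786) stood at 5.57 TPM in the lowest, 5.83 TPM at the median and 6.38 TPM in the highest hyperoxia sample. Normoxia samples had 5.01, 5.35 and 5.73 TPM. In 3 of 6 hyperoxia samples it exceeded every normoxia sample, and the groups overlapped. Its log2 fold change was 0.12 (95% interval -0.0043 to 0.25; limma, Benjamini-Hochberg adjusted p = 0.178), and it passed in none of 25 alternative fits.

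Among the 10 exporters, 6 were tested; 1 rose, none fell and 5 did not pass. The share called, 16.7%, was near the 17.3% of all genes. SLC30A6 (ENSG00000152683) pairs with SLC30A5 to load zinc into the early secretory pathway, where enzymes such as alkaline phosphatases take it up. SLC30A6 had 13.9 TPM in the lowest, 14.4 TPM at the median and 15.3 TPM in the highest hyperoxia sample, against 12.7, 13.2 and 13.9 TPM in normoxia. In 5 of 6 hyperoxia samples it lay above every normoxia sample, and hyperoxia replicate 5, at 13.91 TPM, lay just under normoxia replicate 4, at 13.94 TPM. It averaged 14.5 ± 0.567 TPM in hyperoxia and 13.2 ± 0.46 TPM in normoxia (SD, n = 6 each), a rise of 0.13 on the log2 scale (limma, SE 0.042, Benjamini-Hochberg adjusted p = 0.0488).

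This call was marginal. It was lost when any single sample other than normoxia replicate 4 was left out (limma, Benjamini-Hochberg adjusted p between 0.0531 and 0.094), and in 19 of 25 alternatives in all. Its partner SLC30A5 (ENSG00000145740) had 23.5 to 29.5 TPM in hyperoxia (median 26.8) and 22.3 to 26.0 TPM in normoxia (median 24.7). SLC30A5 gave the same log2 value, 0.13 (95% interval 0.0073 to 0.25), and did not pass (limma, Benjamini-Hochberg adjusted p = 0.138). Without hyperoxia replicate 3 SLC30A5 passed, at 0.17 (limma, Benjamini-Hochberg adjusted p = 0.0436). It did not pass in the other 24 of 25 alternative fits. SLC30A7, a Golgi transporter, had 5.36 to 6.37 TPM in hyperoxia and 5.04 to 5.57 TPM in normoxia, at 0.11 (adjusted p = 0.21).

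SLC30A1 (ENSG00000170385) is the plasma membrane exporter and, like the metallothioneins, a known target of MTF1. It had 5.55 TPM in the lowest, 6.08 TPM at the median and 7.55 TPM in the highest hyperoxia sample, against 6.73, 7.17 and 7.51 TPM in normoxia. Of the hyperoxia samples 4 lay under every normoxia sample and 1 lay above them all. The log2 fold change was -0.15 (95% interval -0.30 to 0.0099; limma, Benjamini-Hochberg adjusted p = 0.191). In the authors' deposited table SLC30A1 had -0.18 with an adjusted p of 0.0415.

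The most abundant exporter was SLC30A9 (ENSG00000014824), a mitochondrial zinc transporter, with 39.3 to 48.3 TPM in hyperoxia and 39.9 to 47.3 TPM in normoxia. Its log2 fold change was 0.02 (95% interval -0.10 to 0.14), and its sign turned under each of the 3 other scalings. SLC30A4, a transporter of intracellular vesicles, lay at 1.27 to 2.09 TPM in hyperoxia and 1.47 to 1.92 TPM in normoxia. The remaining 4 exporters were not tested. SLC30A3, the transporter of synaptic vesicles, was the highest of them, with 0.86 to 1.25 TPM in hyperoxia and 0.35 to 1.14 TPM in normoxia. SLC30A10, an exporter of manganese, did not exceed 0.09 TPM, SLC30A2 did not exceed 0.05 TPM, and SLC30A8, known from insulin granules, had 0.18 TPM in a single normoxia sample and 0 in the others.

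**Figure D3:**
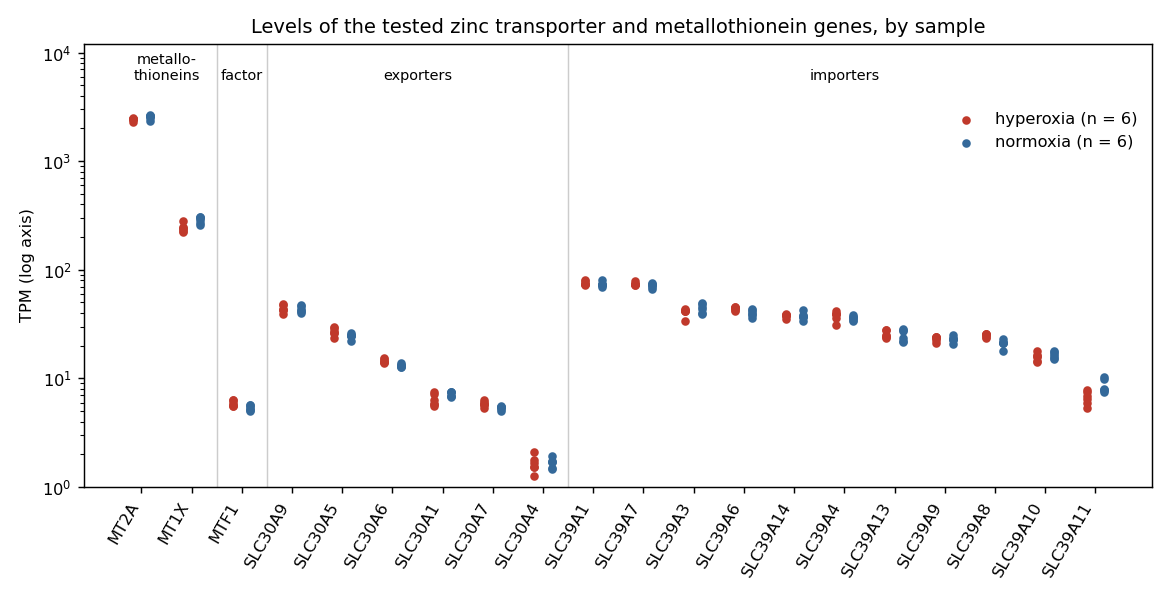
TPM of the 20 tested members in each of the 12 samples (log axis), grouped by role, with hyperoxia (red) left of normoxia (blue). MT2A stands between 2275 and 2660 TPM and MT1X between 222 and 308 TPM, above every transporter; SLC39A1 and SLC39A7 lead the importers and SLC30A9 the exporters.

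Of the 14 importers, 11 were tested, of which 1 rose, 1 fell and 9 did not pass. The share called, 18.2%, was near the 17.3% of all genes. SLC39A8 (ENSG00000138821), which carries zinc and manganese and also lets cadmium into cells, had 23.8 TPM in the lowest, 25.3 TPM at the median and 25.7 TPM in the highest hyperoxia sample. Normoxia samples had 18.0, 21.1 and 22.8 TPM. Every hyperoxia sample lay above every normoxia sample. SLC39A8 was the only tested member whose groups did not overlap, 1 of 20 against 8.78% of all genes tested (6.2% with hyperoxia higher and 2.58% with hyperoxia lower).

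SLC39A8 averaged 24.9 ± 0.882 TPM in hyperoxia and 20.9 ± 1.59 TPM in normoxia (SD, n = 6 each). It rose by 0.24 on the log2 scale (limma, SE 0.051, Benjamini-Hochberg adjusted p = 0.00602), or 1.18 times the normoxia level. The call held in all 25 alternatives, with log2 values between 0.20 and 0.30. In the authors' deposited table its log2 fold change was 0.27 with an adjusted p of 5.09e-06. RefSeq lists 3 start sites for SLC39A8, and 1 of the 3 windows upstream of them held a metal response match. Matches were found for 14 of the 26 members with windows, among them SLC39A3 and SLC39A6, which did not pass. Some members have several windows, so this count by gene is unlike the 24.8% of all windows given above. Counted by window, 15 of the members' 35 windows held a match. The window of SLC39A11 held none.

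SLC39A11 (ENSG00000133195), a divergent importer of intracellular membranes, had 5.33 TPM in the lowest, 6.68 TPM at the median and 7.79 TPM in the highest hyperoxia sample, against 7.52, 7.88 and 10.2 TPM in normoxia. In 5 of 6 hyperoxia samples it lay under every normoxia sample. Normoxia replicates 1 and 5, at 10.2 and 9.87 TPM, stood above the other 4 normoxia samples, which lay between 7.52 and 7.92 TPM. SLC39A11 averaged 6.64 ± 0.946 TPM in hyperoxia and 8.52 ± 1.2 TPM in normoxia (SD, n = 6 each). It fell by 0.32 on the log2 scale, to 0.803 times the normoxia level on the log2(TPM + 1) scale (limma, SE 0.098, Benjamini-Hochberg adjusted p = 0.0406).

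The SLC39A11 call lay close to the threshold and did not hold in most fits that left out 1 sample. It was lost without hyperoxia replicate 1, 3, 5 or 6 or normoxia replicate 1, 2, 5 or 6 (limma, Benjamini-Hochberg adjusted p between 0.05004 and 0.0878), and held without hyperoxia replicate 2 or 4 or normoxia replicate 3 or 4. Over these 12 fits its log2 fold change stayed between -0.36 and -0.26. Of all 25 alternatives SLC39A11 passed in 13. It was also lost in the exact rank-sum test (adjusted p = 0.0559) and without normoxia replicates 4 to 6. With a replicate block and with no filter on low values its adjusted p was 0.05022 and 0.102 (limma). In the authors' deposited table it was the member with the smallest adjusted p, 7.21e-08, at a log2 fold change of -0.52.

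SLC39A1 and SLC39A7 had the highest mean TPM among the transporters. SLC39A1, a broadly expressed surface importer, had 73.1 to 79.8 TPM in hyperoxia and 69.8 to 81.0 TPM in normoxia, at 0.03 on the log2 scale (95% interval -0.051 to 0.12). SLC39A7, which releases zinc from the endoplasmic reticulum, had 72.1 to 78.3 TPM in hyperoxia and 66.6 to 74.8 TPM in normoxia, at 0.05 (95% interval -0.027 to 0.13). The ranges of these 2 genes overlapped within both groups. Read sample by sample, SLC39A1 was the higher in all but hyperoxia replicate 6 and normoxia replicate 1. There it had 73.11 and 72.75 TPM, against 73.57 and 74.82 TPM for SLC39A7. Their order was not tested. SLC39A3, a further surface importer, had 34.1 to 43.4 TPM in hyperoxia and 39.0 to 49.3 TPM in normoxia, at -0.11 (95% interval -0.26 to 0.046; limma, Benjamini-Hochberg adjusted p = 0.336). In the authors' deposited table SLC39A3 had -0.15 with an adjusted p of 0.0405.

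SLC39A6, the LIV-1 importer, had 42.0 TPM in the lowest, 44.4 TPM at the median and 45.6 TPM in the highest hyperoxia sample, against 35.7, 39.9 and 44.0 TPM in normoxia. In 4 of 6 hyperoxia samples it exceeded every normoxia sample. Its log2 fold change was 0.14 (95% interval 0.033 to 0.24), and it narrowly missed the threshold (limma, Benjamini-Hochberg adjusted p = 0.0674). Without normoxia replicate 4 it passed at 0.16 (limma, Benjamini-Hochberg adjusted p = 0.0297). In all it passed in 2 of 25 alternative fits and did not pass in 23. With median-of-ratios, upper-quartile and quantile scaling its adjusted p was 0.154, 0.158 and 0.16 (limma). Its known partner SLC39A10 lay at 14.1 to 17.8 TPM in hyperoxia and 15.04 to 17.96 TPM in normoxia, with a log2 fold change of -0.06 (95% interval -0.19 to 0.073).

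The other 4 tested importers did not pass either. SLC39A14, which like SLC39A8 carries manganese and also iron, had 35.5 to 39.6 TPM in hyperoxia and 34.0 to 42.4 TPM in normoxia, at 0.02 on the log2 scale (95% interval -0.089 to 0.12). SLC39A4, the intestinal zinc importer, had 31.3 to 41.5 TPM in hyperoxia and 34.1 to 38.0 TPM in normoxia, at 0.06 (95% interval -0.069 to 0.19). SLC39A9 and SLC39A13, of the secretory pathway, each gave 0.02 on the log2 scale, with overlap of the groups. SLC39A12 was listed at 0 in all samples, and SLC39A2 and SLC39A5 did not exceed 0.1 and 0.38 TPM.

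Summed over the family, importers came to 407 ± 6.76 TPM in hyperoxia and 398 ± 15.3 TPM in normoxia, and exporters to 100.5 ± 4.75 TPM in hyperoxia and 96.3 ± 3.14 TPM in normoxia (SD, n = 6 each). Both pairs of ranges overlapped. The metallothionein sum exceeded both by far in every sample.

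**Figure D4:**
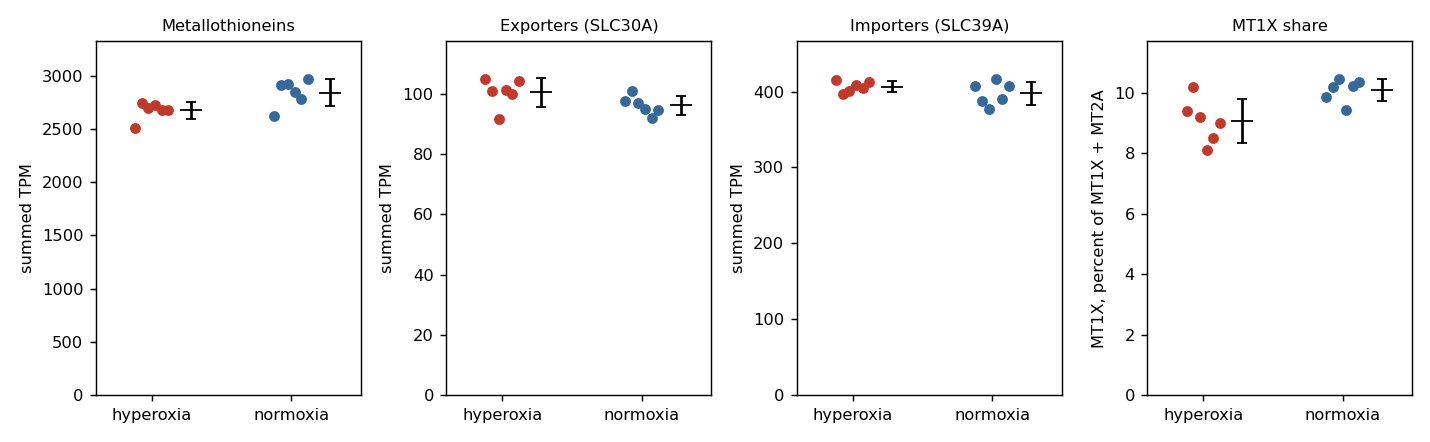
Summed TPM of metallothioneins, exporters and importers, and MT1X as a percent of MT1X plus MT2A, in each sample (points), hyperoxia left of normoxia, with mean ± SD (black bars, n = 6 per group); y axes start at 0. In all 4 panels the groups overlap, as in the metallothionein sums of 2512 to 2749 TPM in hyperoxia and 2624 to 2968 TPM in normoxia.

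The authors' deposited table tested 27 of the 36 members and gave 7 an adjusted p under 0.05. Of these, 3 had a positive and 4 a negative log2 fold change. Among all 32380 genes it tested, 13.9% had an adjusted p under 0.05. Many of those genes had a mean under 1 TPM, so that share is not a like background for the members. The 7 held all 4 members called here, with SLC30A1, SLC30A5 and SLC39A3 in addition. None of the 36 carried the authors' mark of a significant change.

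A further list held mostly genes of copper, zinc and manganese handling, with some others, among them the iron exporter SLC40A1, the selenoprotein gene SELENOH, the growth factor gene PGF and the lysosomal channel gene TMEM175. The deposited values cover 32 of its genes, of which 25 were tested. In hyperoxia 3 rose, 1 fell and 21 did not pass, which is 16.0% against the 17.3% of all genes. ATOX1, a copper chaperone among those that did not pass, has deposited values that disagree with each other; without it the counts were 3, 1 and 20 of 24. The median log2 fold change was 0.07, against 0.03 over all genes. The alkaline phosphatase genes ALPL, ALPP, ALPG and ALPI, whose products take zinc from the secretory pathway, were all under the minimum for the test.

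SOD1 (ENSG00000142168), the copper and zinc superoxide dismutase, had 463 TPM in the lowest, 476 TPM at the median and 500.3 TPM in the highest hyperoxia sample, against 391, 423 and 450.1 TPM in normoxia, with no overlap. It rose by 0.19 (limma, SE 0.036, Benjamini-Hochberg adjusted p = 0.00318); with median-of-ratios and upper-quartile scaling it no longer passed (adjusted p = 0.0556 and 0.0508). SCO1, which delivers copper to cytochrome c oxidase, had 43.4 to 51.4 TPM in hyperoxia and 34.9 to 43.7 TPM in normoxia and rose by 0.26 (limma, SE 0.054, Benjamini-Hochberg adjusted p = 0.00563). CCS, the chaperone that loads copper into SOD1, gave 0.24 and did not pass (limma, Benjamini-Hochberg adjusted p = 0.0674).

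ATP7B, a copper exporter, had 4.68 to 6.21 TPM in hyperoxia and 4.06 to 4.87 TPM in normoxia and rose by 0.23 (limma, SE 0.068, Benjamini-Hochberg adjusted p = 0.036). SELENOH, a nuclear selenoprotein of redox defence, had 29.1 to 39.7 TPM in hyperoxia and 37.7 to 45.5 TPM in normoxia and fell by 0.24 (limma, SE 0.074, Benjamini-Hochberg adjusted p = 0.0414). Both calls lay close to the threshold. With 1 sample left out, ATP7B passed only without hyperoxia replicate 6 or normoxia replicate 1 or 4. In the other 9 such fits its adjusted p was 0.0539 to 0.0721 (limma, Benjamini-Hochberg). SELENOH passed in fits of this kind only without hyperoxia replicate 2, 3 or 5 or normoxia replicate 6. In the other 8 its adjusted p was 0.0574 to 0.0819.

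**Figure D5:**
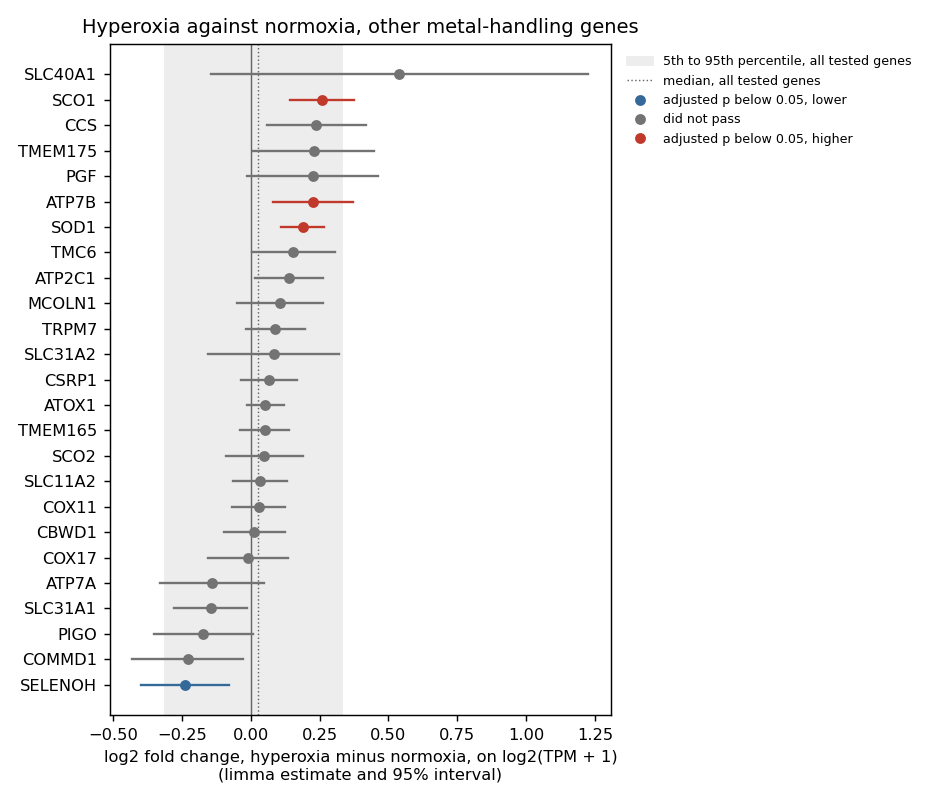
Log2 fold change of the 25 tested neighbour genes, hyperoxia minus normoxia on log2(TPM + 1), with limma's 95% interval (x axis), ordered from highest to lowest; red marks genes that rose, blue those that fell and grey those that did not pass, with the 5th to 95th percentile of all tested genes shaded. SOD1, SCO1 and ATP7B rose by 0.19 to 0.26 and SELENOH fell by 0.24; the wide interval at the top is that of the iron exporter SLC40A1, at 0.54, with 10.7 TPM in hyperoxia replicate 5, 1.44 to 3.07 TPM in the other 5 hyperoxia samples and 1.34 to 1.97 TPM in normoxia.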

How the data were processed

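RNA of 12 H1299 samples was compared, 6 hyperoxia and 6 normoxia by the treatment labels. Trizol was used for extraction, per the labels' protocols; the library kit named there differs from the one in the series' design text, and which was used could not be settled. Per the submitters' processing notes HTSeq 0.9.1 and edgeR 3.16.5 were used; the sources used here name no aligner, no annotation and no tool for TPM. The notes list a mouse build although the identifiers are human, so gene coordinates are printed only for sequences read from the reference.

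Per the file headers the deposited per-sample values and group means are TPM. The deposited table also holds the authors' fold change as a ratio, its log2, p-values and adjusted p-values, used only where named. In 78 rows, none of them a member, these deposited numbers disagree with each other (tolerance 1e-06 on the log2 scale, 1e-05 TPM).

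Genes with a mean of at least 1 TPM were tested with limma 3.58.1 in R 4.3.3 (lmFit, eBayes with trend) on log2(TPM + 1), two-sided, Benjamini-Hochberg adjusted over 14520 genes, threshold 0.05. Fold changes are on this scale, which understates those of low genes. The step was tested on simulated data. Every member was accounted for; members past the threshold, the most abundant 3 per role and MTF1 were to be described in full, and further members (such as SLC30A1, SLC30A7, SLC39A6 and SLC39A14) were added after their values were seen. Members and lists were chosen with earlier results of these data known. The neighbour list holds mostly copper, zinc and manganese genes, with some others. Alternatives were other pseudocounts, filters, scalings and limma settings, omission of samples, a replicate block and an exact rank-sum test. A further marker gene is not reported here.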

Additional observations from a re-analysis of the deposited data

Results flagged for a closer look

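In a screen of the 20 tested members in both groups (40 sets of 6 samples), 3 sets had a sample set apart from the rest by a gap, as a share of the set's range, above Dixon's critical value; chance alone gives about 1 in 20. MT2A was lowest in hyperoxia replicate 1, at 2275 TPM (gap 0.715 of the range). SLC39A3 was lowest in hyperoxia replicate 2, at 34.1 TPM (gap 0.775). SLC39A7 was highest in hyperoxia replicate 1, at 78.3 TPM (gap 0.67). None of these 3 genes passed the test, and no cause was tested.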

How the results depend on the processing

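The number of zinc genes called was small and moved, from 4 to 2 with no filter on low values, 2 in the exact rank-sum test, 2 without normoxia replicates 4 to 6, and 2 to 5 when 1 sample was left out. Over all genes 2516 were called (17.3% of those tested), against 1819 (5.62%) with no filter, 1718 (11.8%) in the rank-sum test, 1375 without normoxia replicates 4 to 6 and 1969 to 2456 with 1 sample left out. Of all calls 67.5% were higher in hyperoxia, against 50%, 47.4% and 54.3% with median-of-ratios, upper-quartile and quantile scaling, which took SLC30A6 out of the calls each time (adjusted p = 0.0703, 0.0943 and 0.0616). Without normoxia replicates 4 to 6, the 2 members called were SLC39A8 and, newly, SLC39A6 (limma, adjusted p = 0.0149 and 0.03835). MT1X (limma, adjusted p = 0.0767), SLC39A11 (0.128) and SLC30A6 (0.138) did not pass there. Nor did the neighbours SCO1 (limma, adjusted p = 0.0693), ATP7B (0.129) and SELENOH (0.1503). The log2 fold changes of MT1X, SLC39A11 and SCO1 there were -0.244, -0.333 and 0.245, against -0.245, -0.317 and 0.258 with all samples. The summed metallothionein difference, -169 TPM, was -50.1 TPM after quantile normalisation. The labels do not say whether same-numbered samples were handled together. Over the tested genes, correlations of their deviations from the group means ran from -0.117 to 0.0169. With a replicate block 3 members were called, MT1X, SLC39A8 and MT2A (adjusted p = 0.0386), and 2545 genes in all. SLC30A4 and ATP7B have no value with a minimum mean of 5 TPM. The cause of these shifts was not tested.

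Signs turned only for members that did not pass. With median-of-ratios, upper-quartile and quantile scaling the log2 fold changes were -0.0091, -0.016 and -0.013 for SLC30A9, -0.0094, -0.016 and -0.011 for SLC39A13, -0.014, -0.021 and -0.0202 for SLC39A14, and -0.0104, -0.017 and -0.0094 for SLC39A9. SLC39A1 gave -0.0054 and -0.0025 with upper-quartile and quantile scaling. Without normoxia replicates 4 to 6 SLC30A9 gave -0.056, SLC39A13 -0.053 and SLC39A3 0.0052. With 1 sample left out the range was -0.066 to 0.023 for SLC30A4, -0.0053 to 0.053 for SLC30A9, -0.019 to 0.056 for SLC39A13, -0.013 to 0.0497 for SLC39A14 and -0.0097 to 0.047 for SLC39A9. The depth is unknown, so no limit could be set for genes listed at 0.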

Other observations

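The lung factor NKX2-1 stayed between 0.29 and 0.78 TPM in hyperoxia and between 0.15 and 0.48 TPM in normoxia. The single high value of SLC40A1 was in hyperoxia replicate 5, and VIM was lower in 4 of 6 hyperoxia samples than in any normoxia sample but did not pass (log2 fold change -0.16, limma, Benjamini-Hochberg adjusted p = 0.051). Their part in the zinc gene results was not tested.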
